A study of Drosophila melanogaster with 3 samples.

Results

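Translation initiation factor genes were examined for binding of the transcription factor Myc in whole Drosophila melanogaster embryos. The genes were chosen by name alone: every protein-coding gene of the Ensembl annotation whose symbol starts with eIF and a digit, which gave 44 of 13945 genes. By symbol they were grouped into eIF2 (3 genes), eIF2B (5), eIF3 (16), eIF4 (13) and the other factors (7). The embryos were 0 to 16 h old, of both sexes pooled, and came from a transgenic line that stably makes the fly Myc protein, encoded by dm, joined at the C terminus to green fluorescent protein. Chromatin sheared by sonication to 200 to 800 bp was precipitated with an antibody against the tag and sequenced (ChIP-seq) in 3 biological replicates, which form 1 group. No other genotype, treatment or time window enters the comparisons, so they are between genes and between replicates. Read counts are not part of the files used, which leaves library depth unknown, and whole embryos do not tell in which cell types Myc was bound.

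Myc is a basic helix-loop-helix protein that pairs with Max and is known in flies as a driver of cell growth, in large part through genes for making ribosomes and protein. Translation starts when eIF2 carries the initiator methionyl-tRNA with GTP to the small ribosomal subunit, on which eIF3 sits as a large scaffold, while the eIF4 factors bind the cap of the messenger RNA and unwind it. The factors eIF1 and eIF1A help to choose the start codon, eIF5 triggers GTP hydrolysis by eIF2, eIF5B joins the large subunit, and eIF2B reloads eIF2 with GTP for the next round.

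Of the 44 genes, 29 (65.9%) had a Myc peak at the promoter, where 26.0% of all protein-coding genes had one. A gene is called bound here when the summit of a dm6 peak that passed the irreproducible discovery rate (IDR), a measure of agreement between replicates, lay within 500 bp of any of its starts. All 3 eIF2 genes were bound, with 3 of 5 eIF2B genes, 11 of 16 eIF3 genes, 6 of 13 eIF4 genes and 6 of 7 other factors. The strongest 4371 peaks of each replicate, as many as the IDR list holds and called its top list below, put a peak at 30, 28 and 27 of the 44 genes in replicates 1, 2 and 3 (28.3 ± 1.53, SD, n = 3). The replicates therefore differed by at most 3 genes. In the relaxed list of the pooled replicates, which keeps weak peaks, 36 genes (81.8%) had a promoter peak, against 54.0% of all protein-coding genes.

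**Figure D1:**
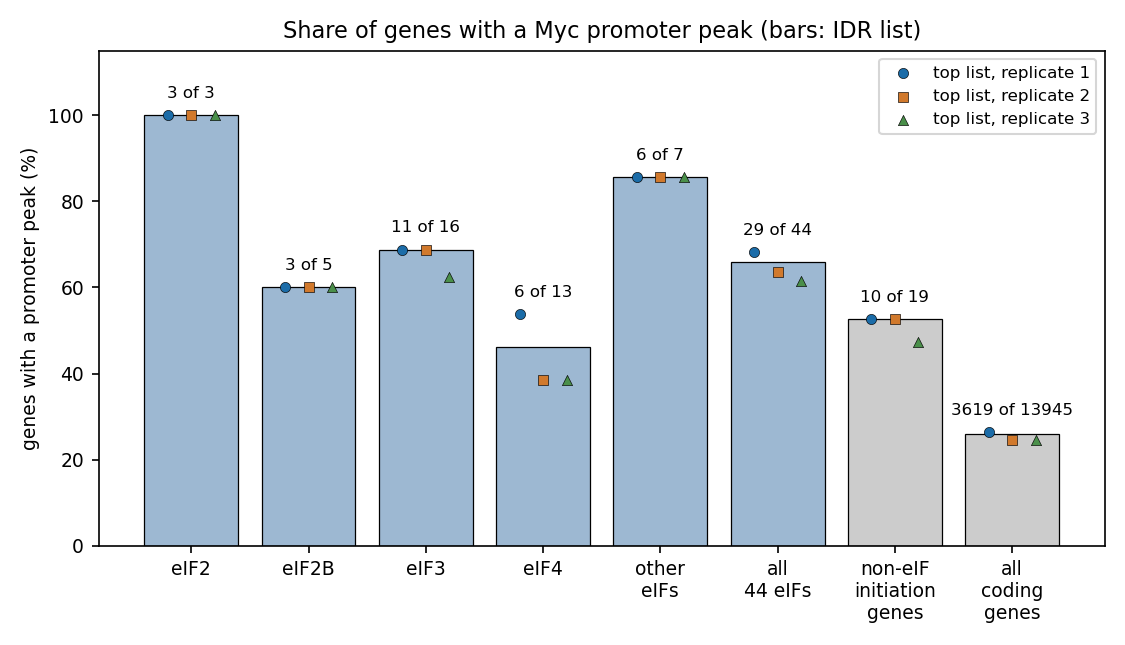
Share of genes with a Myc promoter peak, in percent of the genes in each group; bars show the IDR list and points the top list of each replicate. The 44 initiation factor genes sit at 65.9% and all protein-coding genes at 26.0%, with eIF2 at 3 of 3 genes and eIF4 at 6 of 13.

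The promoter sequences of 7 of the genes are shown because they hold the DNA words discussed further on. They are taken from the dm6 genome of RefSeq and run from 80 bases before to 20 bases after the outermost start, in the direction of the gene. Capitals mark CACGCG, a variant of the E-box, TATCGATA, the palindrome known as the DNA replication-related element (DRE), and GGTCACAC, known as Motif 1, each on either strand. The first 5 genes were bound, and eIF3l and eIF4B were not. The windows are eIF3a at chr3R:4433875-4433975 on the minus strand, eIF3f1 at chr3R:4714162-4714262 on the minus strand, eIF2alpha at chrX:16446973-16447073 on the minus strand, eIF3i at chr2L:4967755-4967855 on the minus strand, eIF4EHP at chr3R:24108940-24109040 on the minus strand, eIF3l at chr3L:12146077-12146177 on the minus strand and eIF4B at chr3L:27858251-27858351 on the minus strand.
eIF3a promoter: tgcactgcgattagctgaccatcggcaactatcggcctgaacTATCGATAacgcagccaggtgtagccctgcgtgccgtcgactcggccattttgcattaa
eIF3f1 promoter: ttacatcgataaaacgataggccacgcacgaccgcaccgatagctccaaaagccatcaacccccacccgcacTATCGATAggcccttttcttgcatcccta
eIF2alpha promoter: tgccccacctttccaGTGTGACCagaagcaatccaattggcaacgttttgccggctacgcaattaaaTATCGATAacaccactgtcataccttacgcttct
eIF3i promoter: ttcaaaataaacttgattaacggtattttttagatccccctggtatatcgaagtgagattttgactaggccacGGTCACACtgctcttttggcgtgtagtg
eIF4EHP promoter: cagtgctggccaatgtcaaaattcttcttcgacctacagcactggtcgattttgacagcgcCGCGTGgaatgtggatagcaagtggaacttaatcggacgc
eIF3l promoter: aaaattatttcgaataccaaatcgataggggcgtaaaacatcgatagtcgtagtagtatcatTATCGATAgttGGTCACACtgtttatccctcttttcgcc
eIF4B promoter: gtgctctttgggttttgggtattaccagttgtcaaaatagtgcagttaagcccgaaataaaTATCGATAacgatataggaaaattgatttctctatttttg

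The strength of a promoter peak is given as relative signal: the deposited signal of the strongest summit within 500 bp of a start, in a replicate's relaxed list, divided by that replicate's median over the peaks matched to the IDR list. A value of 1 is thus the median IDR peak. A value in all 3 replicates was found for 34 of the 44 genes, 2 genes had a value in 2 replicates, and 8 had no peak in any list. Against the median IDR peak, 15 of the 34 were above (limma, Benjamini-Hochberg adjusted over 5915 genes), where 18.2% of all genes tested were, 6 were below, where 45.5% of all genes tested were, and 13 passed in neither direction. The median log2 relative signal was 0.42 over the 34 genes and -0.46 over all genes tested. Nearly all calls above the median IDR peak were at bound genes. Among the 29 bound eIF genes 15 were above and 1 was below. Of all 3587 bound genes tested 1075 were above and 416 below. The median log2 was 0.59 over the bound eIF genes and 0.09 over all bound genes tested. The calls depend on the scale: with the rank of the peak in place of its signal 0 of the 34 genes passed, 17 of them had an unadjusted p under 0.05, and their smallest adjusted p was 0.0722 (limma). Over all 5915 genes the smallest adjusted p with ranks was 0.0405 (limma), and how many of them passed was not counted.

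**Figure D2:**
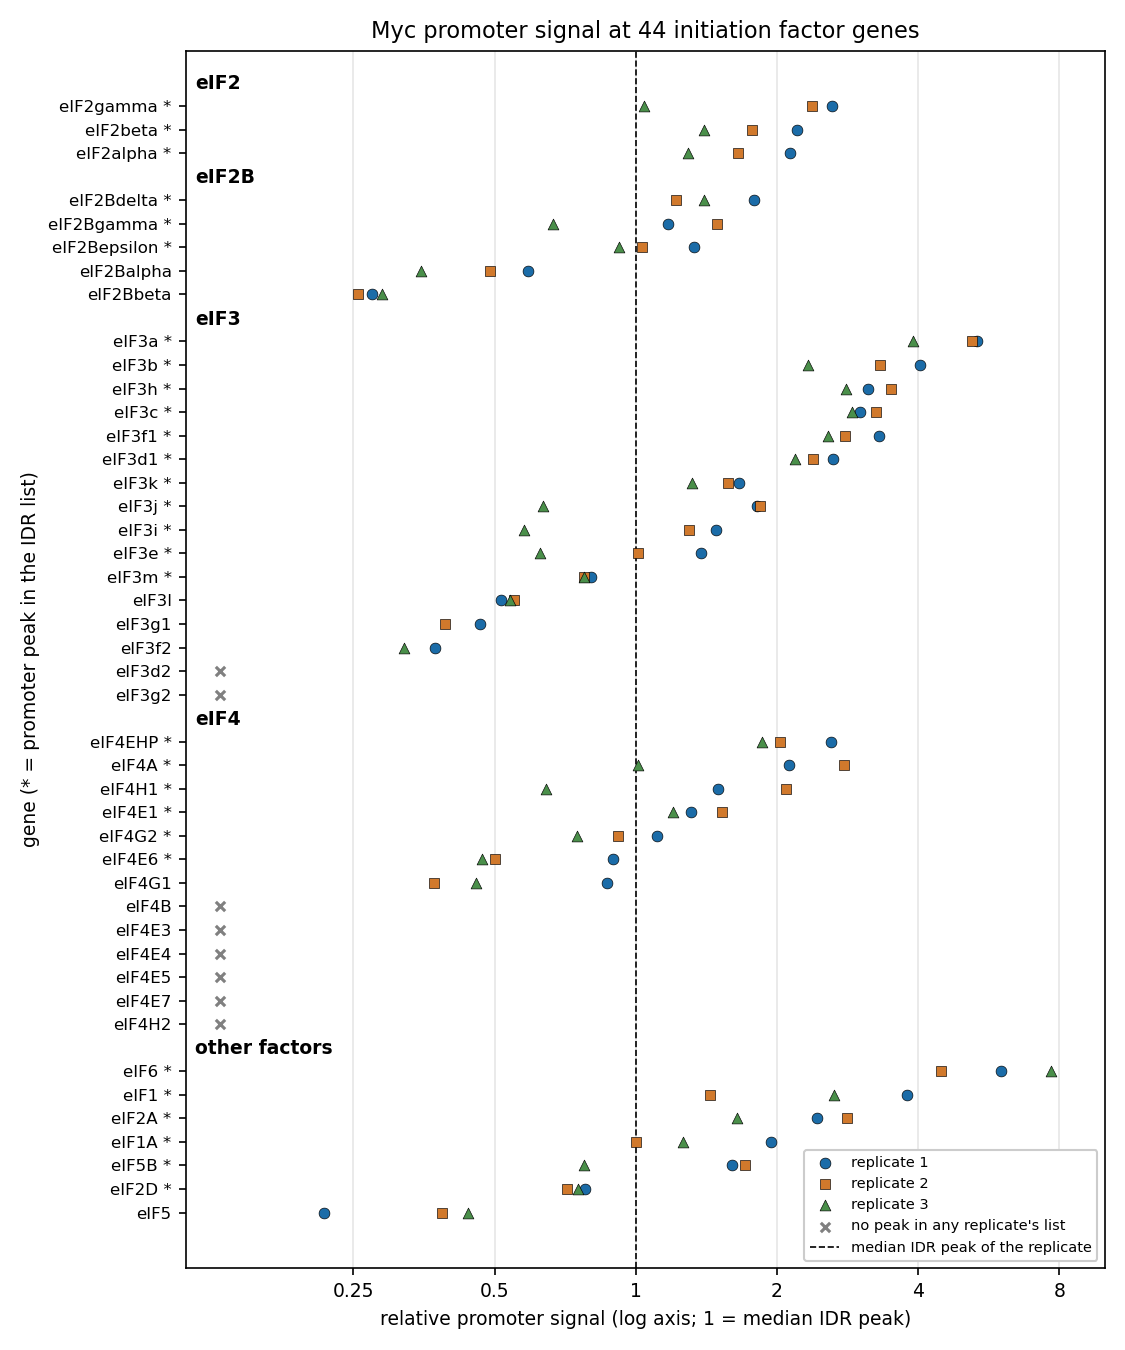
Relative promoter signal of the 44 genes in replicates 1, 2 and 3 on a log axis, where 1 is the median IDR peak of the replicate, an asterisk marks a gene with a promoter peak in the IDR list and a cross marks a gene with no peak in any replicate. The eIF6 gene and eIF3a lie farthest to the right, at 4.47 or more and 3.91 or more in every replicate, and eIF4E3, eIF4E4, eIF4E5 and eIF4E7 carry crosses.

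The 3 genes of eIF2, the factor that delivers the initiator tRNA, had promoter peaks of like strength. Their IDR signals were 316 for eIF2alpha, 328 for eIF2beta and 352 for eIF2gamma, where the median over all IDR peaks was 176. Relative signal at eIF2alpha (FBgn0261609), the subunit phosphorylated under stress, was 2.13, 1.65 and 1.29 in replicates 1, 2 and 3. At eIF2beta (FBgn0004926) it was 2.21, 1.77 and 1.40. At eIF2gamma (FBgn0263740), the subunit that binds GTP, it was 2.62, 2.38 and 1.04. Every value lay above the median IDR peak, with replicate 1 highest and replicate 3 lowest at each of the 3 genes.

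The mean log2 relative signal was 0.73 ± 0.26 (SE) for eIF2alpha, 0.82 ± 0.26 for eIF2beta and 0.90 ± 0.27 for eIF2gamma, and all 3 passed the test (limma, adjusted p = 0.0125, 0.00515 and 0.00351). None of the 3 passed without replicate 1 (adjusted p = 0.174, 0.0993 and 0.108). The eIF2alpha peak, chrX:16446730-16447179, had its summit 38 bp into the gene. The eIF2beta peak, chr3L:12526299-12526748, had its summit 207 bp into the gene, and a second IDR summit of signal 219 lay 6 bp past the start. The eIF2gamma gene had its stronger summit 13 bp before a start, in the peak chr3R:15262725-15263174, and a second of signal 196 lay 242 bp before a start and was shared with Su(var)3-9 and Set.

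The 5 genes of eIF2B, the exchange factor that returns eIF2 to its GTP form, split into 3 bound and 2 not bound. The catalytic subunits eIF2Bgamma and eIF2Bepsilon had relative signals of 1.17, 1.49 and 0.665, and of 1.33, 1.03 and 0.920, in replicates 1, 2 and 3. The regulatory subunit eIF2Bdelta had 1.79, 1.22 and 1.40. Only eIF2Bdelta was above the median IDR peak in all 3 replicates, and none of the 3 passed the test (limma, adjusted p = 0.822, 0.717 and 0.0603). The eIF2Bdelta summit lay 2 bp into the neighbouring gene roh, and that of eIF2Bepsilon 21 bp into Ocrl, so both peaks are shared with another promoter. When each summit was given to the gene with the nearest start alone, 1 of the 5 genes was bound.

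The regulatory subunits eIF2Balpha and eIF2Bbeta had weak peaks in the relaxed lists. Relative signal was 0.589, 0.488 and 0.348 at eIF2Balpha and 0.274, 0.256 and 0.287 at eIF2Bbeta. Both were below the median IDR peak in every replicate and passed the test in that direction, at a mean log2 of -1.11 ± 0.26 and -1.88 ± 0.25 (SE; limma, adjusted p = 2.6e-04 and 5.7e-08). An IDR summit of signal 1765 lay 675 bp before the eIF2Bbeta start, outside the window, and the nearest to eIF2Balpha was 61987 bp away.

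In eIF3, the scaffold on the small ribosomal subunit, the genes of the core subunits eIF3a, eIF3b and eIF3c had strong promoter peaks. The gene for the largest subunit, eIF3a (FBgn0037249), had an IDR signal of 876, the 68th strongest peak of the list. Its relative signal was 5.33, 5.21 and 3.91 in the 3 replicates. The core subunits eIF3b (FBgn0034237) and eIF3c (FBgn0034258) had relative signals of 4.04, 3.31 and 2.33, and of 3.00, 3.25 and 2.89. All 9 values were above 2, and the lowest of each gene was in replicate 3. The mean log2 relative signals were 2.25 ± 0.25 (SE), 1.65 ± 0.26 and 1.61 ± 0.25 (limma, adjusted p = 1.8e-09, 7.5e-07 and 9.1e-07).

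The eIF3a peak, chr3R:4433763-4434106, had its summit 36 bp before the eIF3a start and 34 bp before that of the divergent gene CG1074, so it cannot be given to either gene alone. The eIF3b peak, chr2R:17536385-17536698, had its summit 228 bp past the nearest start, the second farthest of the 29 genes on the downstream side. The eIF3c gene held 2 IDR summits, of signal 532 at 17 bp and 247 at 139 bp past a start.

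Among the other eIF3 subunits, the MPN-domain pair eIF3f1 and eIF3h and the cap-contacting subunit eIF3d1 (a role known from human cells) had strong peaks. Relative signal was 3.30, 2.80 and 2.57 at eIF3f1 (FBgn0037270), 3.12, 3.50 and 2.81 at eIF3h (FBgn0022023), and 2.63, 2.39 and 2.18 at eIF3d1 (FBgn0040227). The groups of values of eIF3f1 and eIF3h overlapped, and all 9 values of the 3 genes were above 2. Their mean log2 relative signals were 1.52 ± 0.25, 1.65 ± 0.25 and 1.26 ± 0.25 (SE), and all passed (limma, adjusted p = 2.2e-06, 6.0e-07 and 4.1e-05). The eIF3h summit lay 62 bp past the inner of its 2 annotated starts, and 125 bp before the start of senju.

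The remaining bound eIF3 genes were weaker. The PCI-domain subunit eIF3k had 1.66, 1.57 and 1.32, above the median IDR peak in each replicate, and passed (mean log2 0.59 ± 0.25, SE; limma, adjusted p = 0.0376). It lost the call without replicate 1 (0.187) and without replicate 2 (0.129). The subunits eIF3e, eIF3i and the loosely attached eIF3j had 1.38, 1.01 and 0.626, then 1.48, 1.30 and 0.579, then 1.81, 1.84 and 0.634. Each of these 3 genes was above 1 in replicates 1 and 2 and below it in replicate 3, and none passed (adjusted p = 0.838, 0.869 and 0.251, limma). Without replicate 3 the log2 relative signal of eIF3j passed (adjusted p = 0.0110, limma).

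The weakest bound eIF3 gene was eIF3m, with an IDR signal of 132 and relative signals of 0.801, 0.777 and 0.776. Its IDR summit lay 88 bp before the inner of its 2 annotated starts, inside the gene, and 342 bp before the start of CG8323. Of the 29 genes only eIF3m had no top-list summit within 100 bp of its IDR summit in any replicate. The strongest eIF3m promoter summit of each replicate was still in its top list. The relative signals of eIF3m thus come from summits more than 100 bp away from the IDR summit. Not bound were eIF3l, the partner of eIF3k, and 4 paralogues treated next. Relative signal at eIF3l was 0.515, 0.550 and 0.539, alike in the 3 replicates, and it passed the test below the median IDR peak (mean log2 -0.90 ± 0.25, SE; limma, adjusted p = 0.00193).

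The eIF3d, eIF3f and eIF3g subunits are each encoded by 2 genes, and the copies of eIF3d and eIF3f fell on different sides of the call. The eIF3d1 values are given above, and eIF3d2 had no peak in any list, the nearest IDR summit lying 1320 bp before its start. The eIF3f1 values are given above, and eIF3f2 had 0.374 in replicate 1, no peak in replicate 2 and 0.321 in replicate 3. For eIF3g neither copy was bound: eIF3g1 had 0.465 and 0.392 in replicates 1 and 2 and no peak in replicate 3, and eIF3g2 had no peak in any list. Only pairs with values in all 3 replicates were tested, so none of these 3 pairs was. An IDR summit of signal 219 lay 1350 bp past the eIF3g1 start, outside the window.

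The eIF4 genes, which act at the cap, held the largest share of unbound genes. The helicase gene eIF4A (FBgn0001942) had an IDR signal of 340 and relative signals of 2.12, 2.78 and 1.01, its value in replicate 3 being at the median IDR peak. It passed the test (mean log2 0.86 ± 0.27, SE; limma, adjusted p = 0.00530), but not without replicate 1 (0.0680) or without replicate 2 (0.141). The peak, chr2L:5981735-5981962, had its summit 88 bp into the gene.

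The cap-binding family has 6 eIF4E genes and eIF4EHP. The general cap-binding protein gene eIF4E1 (FBgn0015218) had relative signals of 1.31, 1.53 and 1.20 and did not pass (mean log2 0.42 ± 0.25, SE; limma, adjusted p = 0.141). The gene for eIF4EHP (FBgn0053100), which competes for the cap and represses translation of chosen messages in the fly embryo, had 2.61, 2.03 and 1.86 and passed (1.10 ± 0.25, adjusted p = 2.5e-04). Each eIF4EHP value was above each eIF4E1 value, a mean difference of eIF4E1 minus eIF4EHP of -0.819 (SD 0.424 between replicates; exact permutation test, two-sided, p = 0.10, adjusted p = 0.150 over 3 pairs). With 3 values against 3 that test cannot go below 0.10. The eIF4EHP summit lay 55 bp before its start and 321 bp before that of CG18428.

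The eIF4E6 gene was bound with a weak peak, of IDR signal 132, ranked 3369 of 4371. Its relative signals, 0.895, 0.502 and 0.469, were all below 1 and all below those of eIF4E1, with a mean difference of eIF4E1 minus eIF4E6 of 0.727 (SD 0.306; exact permutation test, two-sided, p = 0.10, adjusted p = 0.150). It passed the test below the median IDR peak (mean log2 -0.75 ± 0.26, SE; limma, adjusted p = 0.0113), and not without replicate 2 (0.0902) or replicate 3 (0.0955). Its summit lay 18 bp into the neighbouring gene CG1951. The genes eIF4E3, eIF4E4, eIF4E5 and eIF4E7 had no peak in any list, and they were not tested against eIF4E1.

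The scaffold genes eIF4G1 and eIF4G2 differed in their calls. The gene of the general scaffold, eIF4G1, on chromosome 4, had 0.870, 0.372 and 0.456, was in the top list of replicate 1 alone, and was not bound. The gene eIF4G2, known for its role in the male germ line, was bound with 1.11, 0.917 and 0.748, in a peak whose summit lay 3 bp into both eIF4G2 and CG33111. The 2 sets of values overlapped, though eIF4G2 was higher in 3 of 3 replicates (mean difference of eIF4G1 minus eIF4G2 -0.359, SD 0.163; exact permutation test, two-sided, p = 0.20). Their log2 relative signals were -0.92 ± 0.26 and -0.13 ± 0.25 (SE), and eIF4G1 alone passed below the median IDR peak (limma, adjusted p = 0.00251 and 0.666), which it did not do without replicate 2 (0.0701) or replicate 3 (0.0534).

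Of the genes for helicase cofactors, eIF4H1 was bound and eIF4B and eIF4H2 had no peak in any list. Relative signal at eIF4H1 was 1.5, 2.09 and 0.643, above 1 in replicates 1 and 2 and below it in replicate 3. Its strongest summit, measured from the nearest of 2 annotated starts, differed between lists. It lay 243 bp past a start in the IDR list and 169 bp past a start in replicate 2. In replicates 1 and 3 it lay 161 bp before a start. The start used need not be the same in each list. All 3 top lists held a summit within 100 bp of the IDR summit. The eIF4H1 and eIF2alpha genes are neighbours on the X chromosome with divergent starts 1672 bp apart, and each had its own IDR peak. The IDR summit nearest to eIF4B, on 3L, was 590997 bp away.

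**Figure D3:**
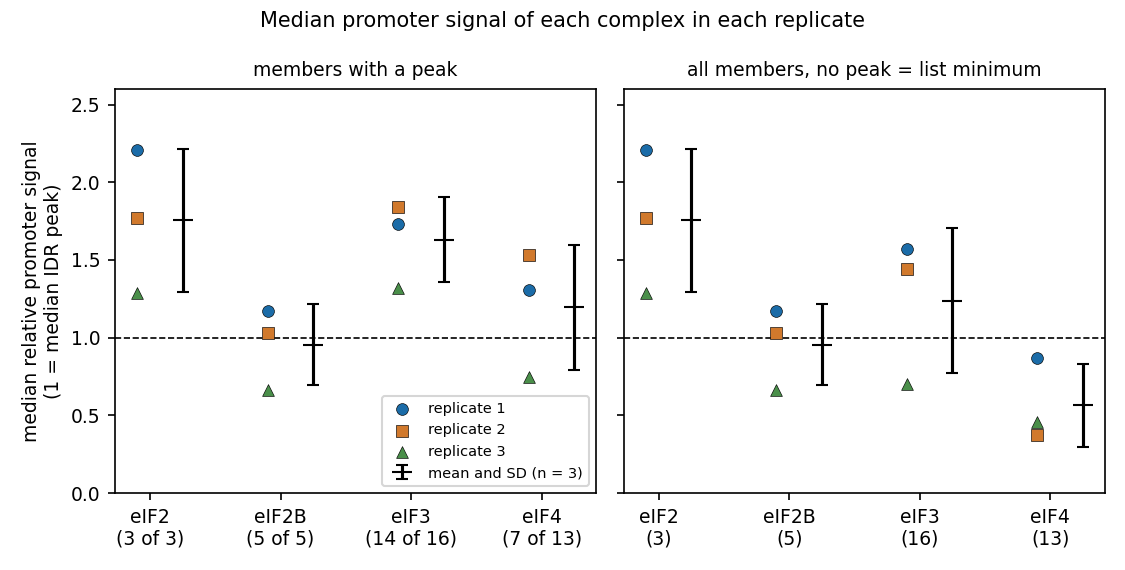
Median relative promoter signal of each complex in replicates 1, 2 and 3, with mean and SD (n = 3), over the genes with a peak (left) and over all genes with those lacking a peak set to the lowest value of the replicate's list (right). The eIF2B values lie below those of eIF2 and eIF3 in the left panel, and eIF4 falls to a mean of 0.566 in the right panel.

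Over the genes with a peak, the median relative signal in replicates 1, 2 and 3 was 2.21, 1.77 and 1.29 for eIF2 and 1.17, 1.03 and 0.665 for eIF2B. It was 1.73, 1.84 and 1.32 for eIF3 (14 of 16 genes with a peak) and 1.31, 1.53 and 0.748 for eIF4 (7 of 13 genes). The eIF2B values lay below all values of eIF2 and of eIF3, and overlapped those of eIF4. The mean difference was 0.8 for eIF2 minus eIF2B (SD 0.214) and -0.678 for eIF2B minus eIF3 (SD 0.128), each with an exact permutation p = 0.10, two-sided, which is the smallest 3 against 3 allows, and an adjusted p = 0.30 over 6 pairs. The other 4 pairs overlapped, with exact permutation p-values of 0.80 for eIF2 and eIF3, 0.30 for eIF2 and eIF4, 0.40 for eIF2B and eIF4, and 0.20 for eIF3 and eIF4. Within replicates, eIF2 and eIF3 were each above eIF4 in 3 of 3 (0.556, SD of the difference 0.331, and 0.433, SD 0.133), eIF2B was below eIF4 in 3 of 3 (-0.245, SD 0.230), and eIF2 was above eIF3 in 1 of 3. A paired exact test over 3 replicates cannot go below p = 0.25, which the 5 pairs of a single direction reached.

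These medians leave out the genes with no peak, 6 of the 13 in eIF4. With such genes set to the lowest relative signal of each replicate's list, 0.198, 0.211 and 0.191, the eIF4 median was 0.870, 0.372 and 0.456 (0.566 ± 0.267, SD, n = 3) and that of eIF3 was 1.24 ± 0.466. The order of eIF2B and eIF4 then turned, eIF2B being higher by 0.388 (exact permutation test, two-sided, p = 0.20). The difference of eIF2B minus eIF3 shrank to -0.284 (exact permutation p = 0.40), and that of eIF2 minus eIF4 grew to 1.19 (exact permutation p = 0.10). The setting was chosen after seeing the data.

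Outside the named complexes, eIF6 (FBgn0034915), the factor that keeps the large ribosomal subunit from joining too early and takes part in its assembly, had the strongest peak of the 44 genes. Its IDR signal was 1100, the 32nd of the list, in the peak chr2R:23850135-23850571 with its summit 60 bp before the start. Relative signal was 6.01, 4.47 and 7.69, and here replicate 3 was highest. The mean log2 was 2.56 ± 0.26 (SE; limma, adjusted p = 1.3e-10).

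The eIF1 gene (FBgn0035423) had relative signals of 3.78, 1.44 and 2.64, with replicate 2 the lowest and replicate 1 the highest. Its strongest summit lay 384 bp before the eIF1 start and 1 bp into RpL28, the gene of a ribosomal protein. A second IDR summit, of signal 162, lay 282 bp past the eIF1 start and was shared with no other gene. The call above the median IDR peak (mean log2 1.28 ± 0.27, SE; limma, adjusted p = 6.6e-05) thus rests on summits near the RpL28 start.

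The eIF2A gene, whose protein can bind initiator tRNA without GTP in mammals, had 2.43, 2.82 and 1.64 and passed (mean log2 1.16 ± 0.26, SE; limma, adjusted p = 1.5e-04). Relative signal was 1.94, 1.00 and 1.26 at eIF1A, in a peak shared with Vps39, and 1.60, 1.71 and 0.776 at eIF5B, and neither passed (limma, adjusted p = 0.144 and 0.227). The gene eIF2D, linked in mammals to ribosome recycling, was bound with 0.778, 0.715 and 0.754, all below 1, and did not pass (0.146). The single unbound gene of this group was eIF5, with 0.216, 0.387 and 0.438 and a mean log2 of -1.59 ± 0.26 (SE; limma, adjusted p = 1.8e-06), and its nearest IDR summit was 3449 bp away.

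The 29 bound genes had a median IDR signal of 280, with quartiles of 204 and 448 and a range of 132 to 1100. Over all 3619 bound genes the median was 197, with quartiles of 145 and 312. By group the medians of bound genes were 448 for eIF3, 332 for the other factors, 328 for eIF2, 220 for eIF4 and 202 for eIF2B. The lowest signal of the IDR list was 110, the bound genes nearest to it were eIF3m and eIF4E6, both at 132, and the unbound genes nearest to it were eIF4G1, eIF2Balpha and eIF3l, at 98.8, 97.1 and 95.1 in the pooled relaxed list. For 25 of the 29 (86.2%) all 3 top lists held a summit within 100 bp of the IDR summit, which was so for 60.7% of all bound genes. Of the other 4, eIF3i and eIF2D had such a summit in 2 lists, eIF4E6 in 1 and eIF3m in 0. At eIF2D and eIF3m the strongest promoter summit of each replicate was still in its top list.

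The summits at the 29 genes mostly lay near the start. The median position of the summit was 8 bp past the nearest start, where over all bound genes it was at -61.0 bp, before the start. The summit was downstream of the start in 16 of 29 genes (55.2%), against 26.4% of all bound genes, and within 100 bp of it in 22 (75.9%), against 53.8%. Downstream summits were found in 7 of 11 bound eIF3 genes (63.6%), from eIF3d1 at 11 bp to eIF3b at 228 bp, and in 2 of 3 eIF2 genes (66.7%). A peak in reach of another gene's start was found in 10 of the 29 genes (34.5%), against 58.0% of all bound genes.

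**Figure D4:**
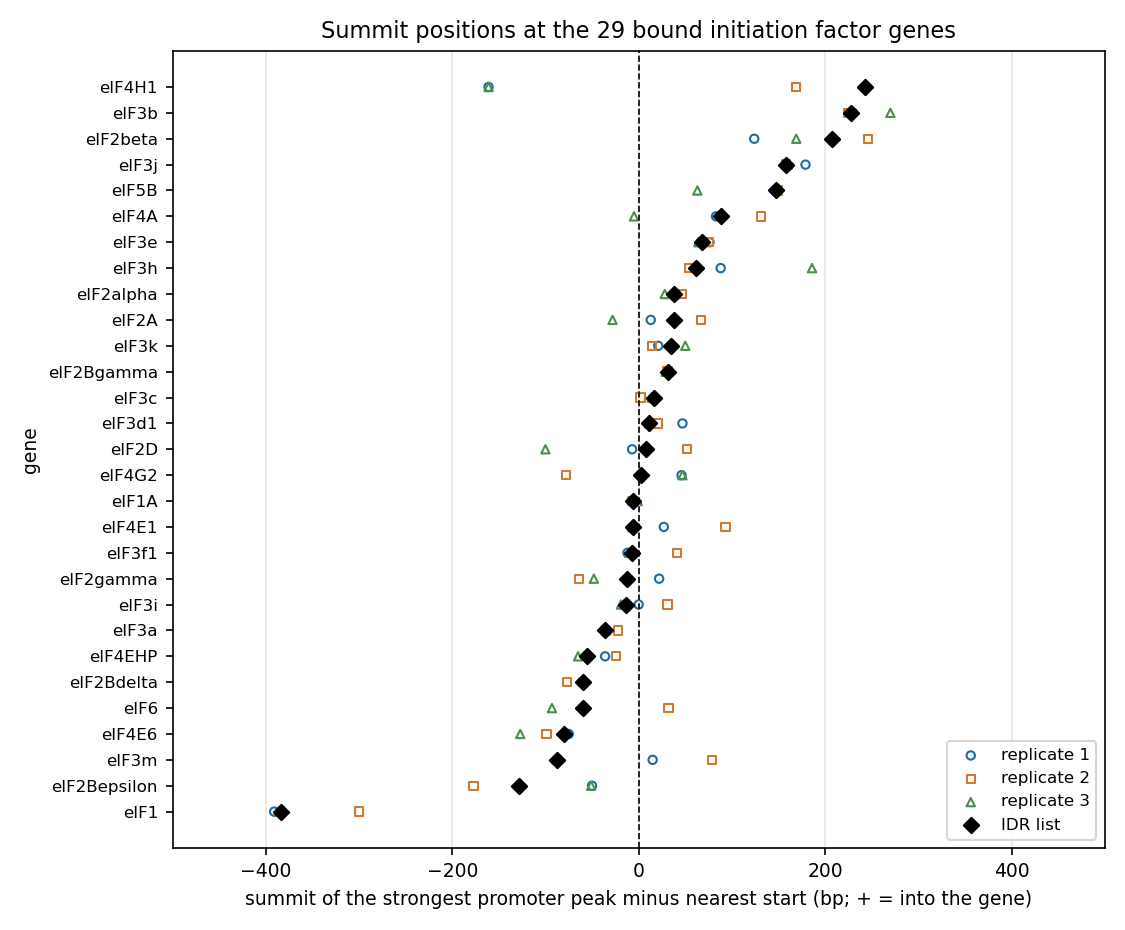
Position of the strongest promoter summit relative to the nearest start, in bp with positive values inside the gene, for the 29 bound genes in the IDR list and in each replicate. Of the 29 IDR summits 22 lie within 100 bp of the start, and eIF1 lies apart at -384. The eIF4H1 summits of replicates 1 and 3 are plotted before a start. With 2 starts annotated, it need not be the start used for the IDR list.

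Replicate 3 gave the lowest relative signal for 24 of the 29 bound genes (82.8%), replicate 2 for 5 and replicate 1 for 0. Over all bound genes with values in each replicate, replicate 3 was lowest for 47.1%. The medians of the 29 genes in replicates 1, 2 and 3 were 1.94, 1.71 and 1.26, and those of all bound genes 1.15, 1.11 and 1.04. Relative signal was above 1 in every replicate for 18 of the 29 genes (62.1%), against 38.6% of all bound genes, and below 1 in every replicate for 3 (10.3%, eIF3m, eIF4E6 and eIF2D), against 23.8%. What sets replicate 3 apart was not tested.

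The genes without a promoter peak mostly had a single annotated start. A single start was annotated for 14 of the 15 unbound genes (93.3%) and for 15 of the 29 bound genes (51.7%), against 73.5% of all protein-coding genes. A gene with more starts has more windows in which a summit can fall. The shares over all bound and all unbound genes were not counted, so the split is not shown to be particular to the eIF genes. By arm, 8 of 9 genes on 2R were bound, 3 of 3 on 2L, 9 of 13 on 3R, 6 of 11 on 3L, 3 of 7 on X and 0 of 1 on chromosome 4. The share of all protein-coding genes bound on each arm was not counted, so these counts do not show a difference between arms particular to the eIF genes.

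The canonical E-box CACGTG, the sequence that Myc and Max bind with highest affinity, was within 50 bp of the summit in 0 of the 29 genes, where 6.85% of all 2991 promoter IDR peaks held it. In a wider window of 100 bp it was found at eIF4A and eIF2gamma (6.90% of the 29 and 9.43% of all promoter peaks). The variant CACGCG was within 50 bp at 5 genes (17.2%), namely eIF3e, eIF4E6, eIF3d1, eIF4EHP and eIF4H1, against 6.19% of all promoter peaks. In the eIF4EHP promoter printed above it appears on the other strand, as CGCGTG, with its first base 19 bp before the start. Other E-boxes were found within 50 bp at 4 genes for CATGTG (13.8% against 7.19%) and at 3 genes for CAGCTG (10.3% against 8.69%). For CAGCTG the order turned in the wider windows, with 10.3% of the 29 genes against 17.1% of all promoter peaks within 100 bp, and against 17.7% of all genes in the promoter.

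The DRE word TATCGATA, a target of the promoter factor DREF, was within 50 bp of the summit at eIF3a, eIF3f1 and eIF4E6 (10.3% against 6.75% of all promoter peaks). In the whole promoter, taken from 250 bp before to 50 bp after the outermost start, it was found in 9 of the 29 bound genes (31.0%) and in 3 of the 15 unbound genes, where 9.36% of all protein-coding genes held it. The 3 unbound genes were eIF4B, eIF2Bbeta and eIF3l, and the sequences above show that eIF4B and eIF3l hold the word near the start, 19 and 18 bp before it, with no IDR peak. The Motif 1 word GGTCACAC was within 50 bp of the summit at eIF3i, eIF2Bepsilon and eIF3k (10.3% against 5.22%), and in the whole promoter of 5 bound genes (17.2%) and 1 unbound gene (6.67%), against 7.70% of all genes. For the whole promoter the share over all bound genes was not counted. The shares in that window therefore do not set the bound eIF genes apart from other bound genes. A match to a word is a description of the sequence and shows no binding by the factor it is named for. The words do not overlap each other in the sequences shown.

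Genes of the translation machinery often start at a pyrimidine-rich initiator known as TCT. Searched as NCTTTNT on the strand of the gene with its C within 10 bp of any start, it was found at 1 of the 44 genes, eIF3c (2.27%), against 4.20% of all protein-coding genes. A looser word, CTTTT, was tried after seeing the data, and it was found at 7 of the 44 genes (15.9%), against 5.83% of all genes and 8.34% of all bound genes. Of these 7, 5 are eIF3 genes (eIF3c, eIF3e, eIF3f1, eIF3g1 and eIF3i), and the others are eIF4A and eIF1A, and only eIF3g1 was not bound. The starts of 4 of them are shown to let the word be seen beside the start, which is base 21 of the 41 printed, with capitals for the CTTTT whose C lies within 10 bp of the start and not for others. They are eIF4A at chr2L:5981744-5981784 on the plus strand, eIF3e at chr3L:16786921-16786961 on the minus strand, eIF3f1 at chr3R:4714162-4714202 on the minus strand and eIF3g1 at chrX:2610316-2610356 on the minus strand, in dm6 of RefSeq.
eIF4A start: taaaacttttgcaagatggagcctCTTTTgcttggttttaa
eIF3e start: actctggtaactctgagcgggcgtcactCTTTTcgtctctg
eIF3f1 start: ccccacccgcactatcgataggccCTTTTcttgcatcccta
eIF3g1 start: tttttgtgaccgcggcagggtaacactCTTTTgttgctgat

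Genes that act in initiation but are not named eIF were listed separately, with earlier results of these data known. From a list of 20 names, of which 19 matched the annotation, 10 (52.6%) were bound in the IDR list, beside 65.9% of the eIF genes and 26.0% of all protein-coding genes, and 10, 10 and 9 in the top lists of replicates 1, 2 and 3. The strongest were bel, a helicase of the DEAD-box family, with relative signals of 5.94, 6.16 and 4.36, larp, whose human counterpart binds messages for ribosomal proteins, with 4.31, 4.03 and 7.56, and S6k, a kinase downstream of Tor, with 5.75, 5.76 and 3.63. The larp summit lay 340 bp before its start, and that of S6k was shared with kri. As at eIF6, replicate 3 was highest at larp.

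The poly(A)-binding protein gene pAbp had 2.19, 1.87 and 1.01, and the gene pix, whose protein recycles ribosomes, had 2.21, 1.60 and 1.24 in a peak shared with Srp68. The repressor of eIF4E, Thor, had 1.23, 1.08 and 0.696. The bound genes Paip2, NAT1, Lk6 and crc had IDR signals from 118 to 169, all below the median IDR peak of 176. The kinases of eIF2alpha, Gcn2 and PEK, and its phosphatase subunit PPP1R15 were not bound, nor were 4E-T, mxt, cup, DENR, MCTS1 and vas. At Gcn2 relative signal was 0.352, 0.546 and 0.197, at PEK 0.640, 0.609 and 0.374, and at PPP1R15 0.227, 0.284 and 0.231, all below 1.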

How the data were processed

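Peak lists in narrowPeak format on the dm6 genome were used for 3 biological replicates, with a relaxed list for each replicate, a relaxed list of the pooled replicates and the list thresholded by IDR. The signal score was used as deposited by the authors, and its scaling by their peak caller is not stated in the labels or headers. The −log10 q value deposited by the authors in the same lists was not used for any result. For the aligner, the peak caller and the IDR threshold no source used here gives a name or value. The dm3 lists were left out. The relaxed lists of replicates 1, 2 and 3 held 29853, 26058 and 25842 peaks, of which 4225, 4096 and 4114 lay within 100 bp of an IDR summit, with a median signal of 66.3, 53.2 and 64.5. Without read counts no counting error can be given, and precision rests on the spread between the 3 replicates.

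Gene starts came from Ensembl release 115 (BDGP6.54), and DNA was read from RefSeq's dm6 assembly. The log2 relative signal was tested against 0 with limma 3.58.1 in R 4.3.3 over the 5915 genes with a value in all 3 replicates, at a Benjamini-Hochberg adjusted threshold of 0.05. The fit was tested on simulated data. Complexes and paralogues were compared by exact permutation tests over replicates. The words, the gene groups and the list of other initiation genes were chosen with earlier results of these data known. Every eIF gene is named, with full values for the bound genes of each complex and for paralogues.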

Additional observations from a re-analysis of the deposited data

How the results depend on the processing

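The count of 29 bound genes ranged from 24 (nearest start only) to 36 (pooled relaxed list), with 28 and 30 for windows of 250 and 1000 bp, 25 for the strongest 2185 peaks, and 25 to 27 with a replicate left out. The share of all genes moved too, from 15.2% to 54.0%. For eIF2B the count was 1 with the nearest start only (19.1% of all genes) and 5 in the pooled relaxed list (54.0% of all genes). For the other initiation genes it was 6 in the strongest 2185 peaks (15.2% of all genes) and 16 in the pooled relaxed list. With a replicate left out it was 7 to 9 for these genes, where 17.5% to 19.1% of all genes were bound.

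Genes above and below the median IDR peak numbered 15 and 6 of 34, where 18.2% and 45.5% of all genes tested were called. The share of all genes called was counted at this setting alone, so the counts that follow have no such share beside them. Scaling to the whole relaxed list gave 32 and 0, since its median is lower by construction, and turned the log2 values of eIF2Balpha (0.62), eIF2D (1.31), eIF3e (1.66), eIF3l (0.82), eIF3m (1.38), eIF4E6 (0.98), eIF4G1 (0.81), eIF4G2 (1.60) and eIF5 (0.14). Ranks gave 0 and 0 (limma, 17 at an unadjusted p under 0.05). They turned eIF2Bgamma and eIF3i, at -0.13 and -0.86 in percentile points of rank, not log2, from the median IDR peak. The cause was not tested. Leaving out a replicate gave 10 to 18 above and 5 to 6 below, and log2 values of -0.04 to 0.23 for eIF2Bepsilon, -0.18 to 0.40 for eIF2Bgamma, -0.33 to 0.24 for eIF3e, -0.20 to 0.47 for eIF3i, -0.27 to 0.01 for eIF4G2 and -0.03 to 0.82 for eIF4H1. Without replicate 3, eIF3j, eIF4H1 and eIF5B also passed (limma, adjusted p = 0.0110, 0.0186 and 0.0228). With a trend in the spread or values in at least 2 replicates, eIF2Bdelta passed (limma, adjusted p = 0.0261 and 0.0474).

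The difference of eIF2 minus eIF3 was -0.0537 to 0.222 with a replicate left out and -0.647 over bound genes alone, where eIF2 minus eIF2B was 0.596 (exact permutation p = 0.20), and that of eIF2B minus eIF4 was 0.388 with genes lacking a peak at the lowest signal of the list. Counts of words were 2 for CACGTG in both wider windows, 8 for CACGCG and 6 for TATCGATA within 100 bp, 9 for TATCGATA and 5 for GGTCACAC in the promoter. The initiator was found at 0 genes at the outermost start and, as CTTTT, at 6 bound genes. Alternatives for CTTTT, the outermost start and genes lacking a peak were chosen after seeing the data. With the replicate as a block, in an exact paired test also chosen after seeing the data, the differences between complexes and paralogues keep their values by construction, and p was 0.25, the smallest possible, for 5 of 6 complex pairs and all 3 paralogue pairs, and 1.00 for eIF2 and eIF3.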

Other observations

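The genes with no peak in any list were eIF3d2, eIF3g2, eIF4B, eIF4E3, eIF4E4, eIF4E5, eIF4E7 and eIF4H2. The distance from their starts to the nearest IDR summit ran from 1320 bp at eIF3d2 to 590997 bp at eIF4B. At eIF4E5 it was 9089 bp, at eIF4E7 32612 bp, and at eIF4H2 44077 bp. At eIF4E3 and eIF4E4 the nearest summit lay before the start, at -31046 and -37921 bp, and at eIF3g2 it lay at -80318 bp. The median gene length was 1647 bp over the 15 unbound eIF genes, 2279 bp over the 29 bound ones and 2166 bp over all protein-coding genes.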
